A study of Caenorhabditis elegans with 6 samples.

Results

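Metallothioneins and the *cdr* (cadmium responsive) genes are part of the metal response of *C. elegans*. Transcripts of this group were named as *mtl-1*, *mtl-2* and *cdr-1* through *cdr-7*, and 7 of the 9 names matched one of the 19793 genes measured in neural cells. The group was chosen by the *cdr-4* values of these same libraries, which had been seen to be higher when the first RNA-binding domain of ADR-1 (dsRBD1) was mutated. The genotype difference of each member is therefore given as a description, with no p. No row carried the name *cdr-3* or *cdr-5*, and no value is given under these names. Whether *hrg-2*, which lies among the *cdr* genes of chromosome V, is the gene meant by *cdr-5* was not settled by the annotation used, and *hrg-2* is not counted as a member.

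Metallothioneins are short, cysteine-rich proteins that hold zinc, copper and cadmium ions through their thiol groups. In worms, both metallothionein genes are induced in the intestine by cadmium and by heat, and high zinc induces *mtl-1* through the nuclear receptor HIZR-1. The founding *cdr* gene, *cdr-1*, is induced by cadmium in intestinal cells, and its protein protects animals from cadmium. The other *cdr* genes were named for their similarity to it, and the family shares sequence features with glutathione S-transferases.

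RNA of neural cells isolated from first-stage larvae (L1) was sequenced, with 3 biological replicates of *adr-2 (-)*;ADR-1 dsRBD1 animals (strain HAH57, whose cells are called dsRBD1 cells hereafter) and 3 of *adr-2 (-)* animals (strain BB78). The comparison addressed whether transcript levels depend on RNA binding by ADR-1, a double-stranded RNA-binding protein related to the editing enzyme ADR-2. Both strains carried the *adr-2* deletion allele *ok735*, so neither could edit adenosines and no animal with ADR-2 was included. They also carried RFP and GFP driven by the neuronal *rab-3* promoter, the GFP with the *unc-54* 3′ UTR, and an *unc-119* rescue. The dsRBD1 strain also carried FLAG-tagged ADR-1 with substitutions in its first double-stranded RNA-binding domain, whereas no tag is listed for the *adr-2 (-)* strain, so effects of the tag and of the substitutions cannot be told apart. Larvae hatched overnight in buffer without food, and neither an age nor a sex was given beyond the larval stage. Read counts per gene cannot show the substitutions, so they give no check of the genotype.

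The dsRBD1 libraries held 12219263 to 18382009 reads on genes and the *adr-2 (-)* libraries 5686686 to 14658470. *adr-2 (-)* replicate 3 stood apart. It was the shallowest library, its ribosomal RNA genes took 55.4% of the reads against 13.5% to 22.3% in the other 5 libraries, and its mean correlation across genes with the other libraries was 0.602 against 0.739 to 0.803. One read in it was worth a normalized value of 3.25, against 0.602 to 0.930 elsewhere. All 15 neuronal markers had reads in every library, with sums of 39304 to 48346 in dsRBD1 cells and 37936 to 42980 in *adr-2 (-)* cells. Per kilobase of exon, the body wall muscle and the intestinal list sums exceeded the neuronal sum in 6 of 6 libraries. Markers of tissues other than neurons were therefore abundant. The largest part of the intestinal sum was *asp-1*, at 31977 per kb. The median gene stood at 854 per kb for intestine, 1107 for neurons and 9074 for body wall muscle. The muscle list holds *unc-54* and the neuronal list *unc-119*, so transgene reads may be counted in them, and that part was not tested. The intestinal sums overlapped, at 66275 to 94782 in dsRBD1 cells and 60431 to 86511 in *adr-2 (-)* cells.

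A normalized value here is the read count of a gene divided by a size factor of its library. Fold changes are on the log2(value + 1) scale, dsRBD1 minus *adr-2 (-)*, with the standard error (SE) from limma.

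The metallothionein genes differed in level, and their fold changes had opposite signs, a difference that was not tested. *mtl-1* (WBGene00003473), also a known target of the FOXO factor DAF-16, lies on the minus strand of chromosome V at 6691371 to 6691863 (WBcel235) and has 2 exons. Its normalized values were 464, 776 and 377 in dsRBD1 cells and 409, 346 and 302 in *adr-2 (-)* cells. The dsRBD1 value of replicate 2 was the highest, and the groups overlapped because dsRBD1 replicate 3 lay below *adr-2 (-)* replicate 1. The mean was 539 ± 209.7 in dsRBD1 cells and 353 ± 53.6 in *adr-2 (-)* cells (SD, n = 3 each). The log2 fold change was 0.55 (SE 0.37), and 0.26 when dsRBD1 replicate 2 was left out.

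*mtl-2* (WBGene00003474) encodes the other metallothionein and sits on the same chromosome at 14018270 to 14018673, minus strand, also in 2 exons. It measured 5.58, 16.9 and 15.7 in dsRBD1 cells and 133, 24.2 and 45.5 in *adr-2 (-)* cells. Every dsRBD1 value lay below every *adr-2 (-)* value. Behind these values stood 6, 28 and 22 reads in dsRBD1 cells and 148, 33 and 14 in *adr-2 (-)* cells, and the nearest pair cannot be separated by counting. Exact 95% Poisson intervals, which cover counting error only, were 11.2 to 24.4 for dsRBD1 replicate 2 and 16.7 to 34.0 for *adr-2 (-)* replicate 2. The log2 fold change was -2.11 (SE 1.60), between -2.66 and -1.45 with any 1 library left out, the smallest difference being without *adr-2 (-)* replicate 1. Its standard error was more than 4 times that of *mtl-1*.

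Reads of *mtl-1* outnumbered those of *mtl-2* in every library, but by different factors. The ratio of *mtl-1* to *mtl-2* reads, which does not depend on the scaling of the libraries, was 83.2, 46.0 and 24.0 in dsRBD1 cells and 3.07, 14.3 and 6.64 in *adr-2 (-)* cells. The ratios of the genotypes did not overlap, and the *mtl-2* counts behind them are small.

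**Figure D1:**
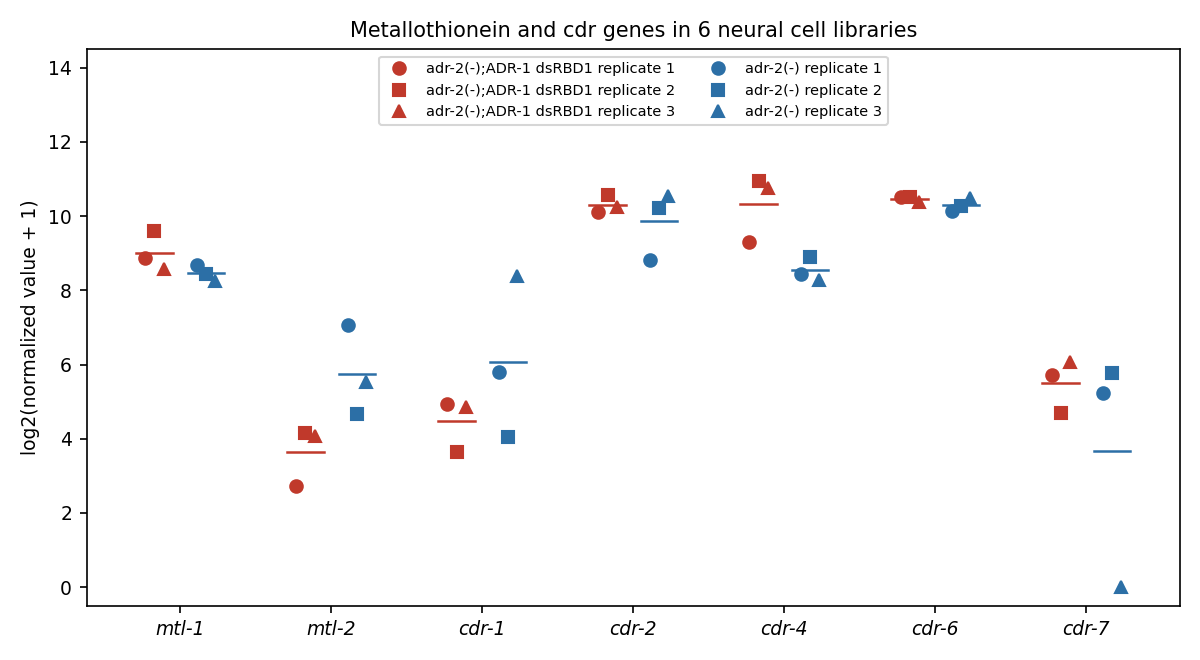
Log2(normalized value + 1) of the 7 genes found, with dsRBD1 libraries (red) on the left of each pair and *adr-2 (-)* libraries (blue) on the right. Points are single libraries, shaped by replicate, and lines mark group means of the log2 values. *cdr-4* lies higher in the 3 dsRBD1 libraries (627 to 1985 against 309 to 480.0) and *mtl-2* lower, while the other 5 genes overlap.

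Among the *cdr* genes, *cdr-4* had the clearest separation of the genotypes. It is a *cdr* family member on chromosome V (WBGene00010470, 12407366 to 12408625, minus strand, 6 exons). The values of *cdr-4* were 627, 1985 and 1718 in dsRBD1 cells and 345, 480.0 and 309 in *adr-2 (-)* cells. dsRBD1 replicates 2 and 3 were far above all the others, and dsRBD1 replicate 1 was nearest to the *adr-2 (-)* libraries. The mean was 1443 ± 719.8 in dsRBD1 cells and 378 ± 90.1 in *adr-2 (-)* cells (SD, n = 3 each), a ratio of 3.82.

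The log2 fold change of *cdr-4* was 1.79 (SE 0.41) and ran from 1.48 without dsRBD1 replicate 2 to 2.31 without dsRBD1 replicate 1. The values of the genotypes also did not overlap under the 3 other scalings of the libraries. That check was chosen after seeing the data, for the gene by which the group was chosen, and nothing is read from it. dsRBD1 replicates 2 and 3 were also the deepest libraries, and the part of depth in this pattern was not tested. Across genes, 932 of 13705 (6.80%) had dsRBD1 libraries wholly above the *adr-2 (-)* libraries and 948 (6.92%) wholly below, and among the 7 members 1 was above and 1 below. These counts come from the contrast on which the group was chosen, and nothing is read from them. By limma with Benjamini-Hochberg adjustment, 0 of 13705 genes (0%) passed an adjusted p under 0.05 with an absolute log2 fold change above 0.5, the smallest adjusted p being 0.129, and 872 (6.36%) had an unadjusted p under 0.05. By DESeq2, 317 of 13844 genes (2.29%) passed both thresholds, 43 higher (0.311%) and 274 lower (1.98%). The quasi-likelihood test of edgeR called 0 genes (0%), with 898 (6.55%) under an unadjusted p of 0.05.

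*cdr-2*, *cdr-6* and *cdr-7* are neighbours of *cdr-4*. *cdr-6* (WBGene00010471, 12412487 to 12413701, minus strand, 6 exons) was the steadiest of the group. It measured 1461, 1455 and 1322 in dsRBD1 cells and 1120.1, 1231 and 1447 in *adr-2 (-)* cells, and the groups overlapped. The log2 fold change was 0.16 (SE 0.22), and the SD of its log2 values was 0.08 in dsRBD1 cells and 0.19 in *adr-2 (-)* cells, against medians over genes of 0.56 and 0.88.

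*cdr-2* (WBGene00008296, 12414656 to 12415709, minus strand, 5 exons) measured 1099.8, 1516 and 1204 in dsRBD1 cells and 454, 1187 and 1483 in *adr-2 (-)* cells. *adr-2 (-)* replicate 1 was the lowest, and the groups overlapped. The log2 difference of 0.44 (SE 0.38) became -0.07 without that library.

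*cdr-7* (WBGene00010472, 12410879 to 12412113, minus strand, 5 exons) had low values, and it measured 52.1, 24.7 and 65.8 in dsRBD1 cells and 36.9, 53.6 and 0 in *adr-2 (-)* cells. The 0 belongs to *adr-2 (-)* replicate 3, in which 3 reads, taken as the detection floor, are worth 9.76. The log2 fold change of 1.82 (SE 1.91) rests on that library and became -0.02 without it.

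*cdr-1* (WBGene00000412, 15921309 to 15922820, plus strand, 6 exons) is the only *cdr* member found that lies away from the others. It had values of 29.7, 11.4 and 27.9 in dsRBD1 cells and 55.0, 15.4 and 335 in *adr-2 (-)* cells. *adr-2 (-)* replicate 3 stood far above all others, and the groups overlapped. On the log2 scale the difference was -1.60 (SE 1.52), and -0.44 without that library.

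**Figure D2:**
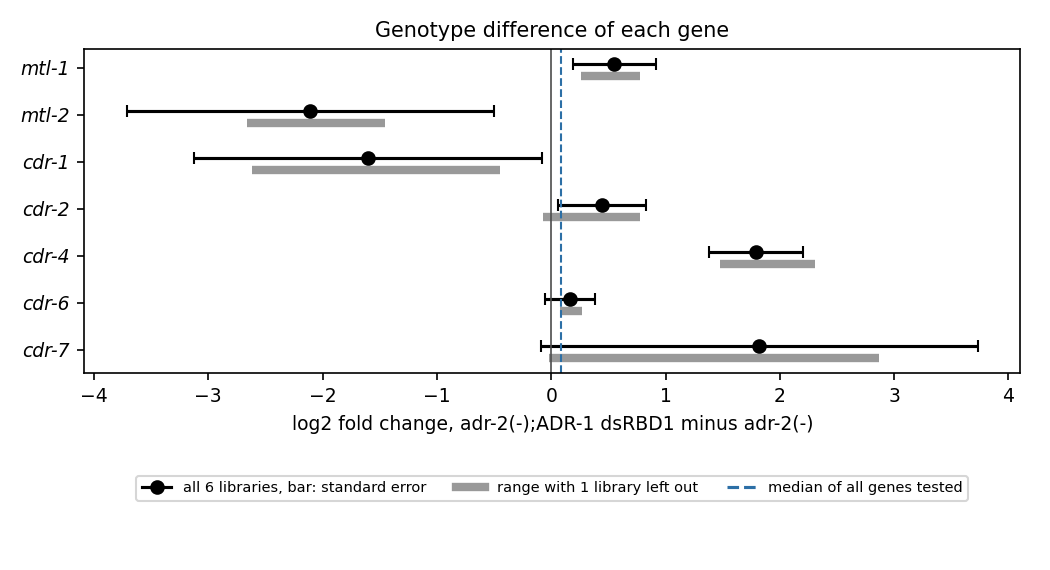
Log2 fold changes of the 7 genes, dsRBD1 minus *adr-2 (-)*; points are values from all 6 libraries with their SE as bars, grey bands are the range with 1 library left out, and the dashed line is the median of all genes tested (0.09). *cdr-4* lies between 1.48 and 2.31, and the values of *cdr-2* and *cdr-7* cross 0.

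Of the 7 genes, 5 had a log2 fold change above 0 and 2 below 0, with a median of 0.44. Over the 13705 genes tested, 54.5% were above 0 and the median was 0.09. All 7 genes had a mean of at least 10 in each genotype, so none passed the filter on low values through 1 genotype alone.

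The genes *cdr-4*, *hrg-2*, *cdr-7*, *cdr-6*, *cdr-2* and *cdr-3* followed each other in this order over 10012 bp of chromosome V, from 12407366 to 12417377, and all lie on the minus strand. The gap between *cdr-7* and *cdr-6* was 373 bp, between *cdr-6* and *cdr-2* 954 bp, and between *cdr-2* and *cdr-3* 648 bp. *cdr-4* and *cdr-7* were 2253 bp apart, with *hrg-2*, by its name a heme responsive gene, between them. None of the members overlaps another annotated gene.

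The genotype differences varied along the cluster, and the differences between neighbours were not tested. Of the 10 genes in the table within 5000 bp of its ends, 1 (*cdr-4*) had its dsRBD1 libraries wholly above and 0 had them wholly below, against 6.80% and 6.92% of all genes. The 1 gene is the one by which the group was chosen, and nothing is read from the count. *hrg-2* measured 21.4, 88.5 and 60.1 in dsRBD1 cells and 27.9, 61.6 and 0 in *adr-2 (-)* cells, and its groups overlapped, as did those of *C54D10.3* at the other end, with 591, 501 and 487 in dsRBD1 cells and 308, 578 and 468 in *adr-2 (-)* cells.

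**Figure D3:**
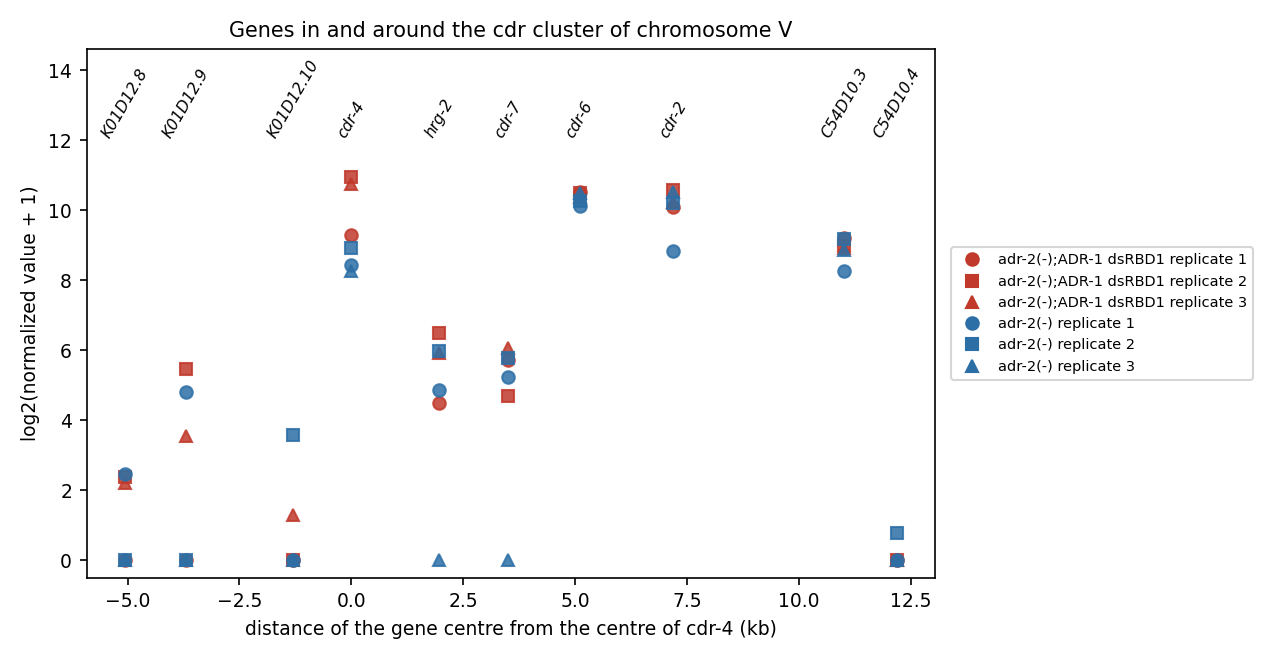
Log2(normalized value + 1) of the 10 genes in and beside the *cdr* cluster, each library 1 point (dsRBD1 red, *adr-2 (-)* blue, shaped by replicate), against the distance of the gene centre from the centre of *cdr-4* in kb. The red and blue points are apart at *cdr-4* and mixed at the other 9 genes.

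Setting *cdr-4* against its neighbours within each library removes the scaling of that library. The ratio of *cdr-4* to *cdr-6* reads was 0.429, 1.36 and 1.30 in dsRBD1 cells and 0.308, 0.390 and 0.213 in *adr-2 (-)* cells, without overlap, though dsRBD1 replicate 1 was close to *adr-2 (-)* replicate 2. The ratio of *cdr-2* to *cdr-6* reads was 0.753, 1.04 and 0.911 in dsRBD1 cells and 0.405, 0.964 and 1.02 in *adr-2 (-)* cells, and overlapped. Relative to *cdr-2*, *cdr-4* reads were at 0.570, 1.31 and 1.43 in dsRBD1 cells and 0.760, 0.404 and 0.208 in *adr-2 (-)* cells, so dsRBD1 replicate 1 fell among the *adr-2 (-)* libraries on that scale. The ratios of *cdr-4* use the values by which the group was chosen, and nothing is read from whether they overlap.

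**Figure D4:**
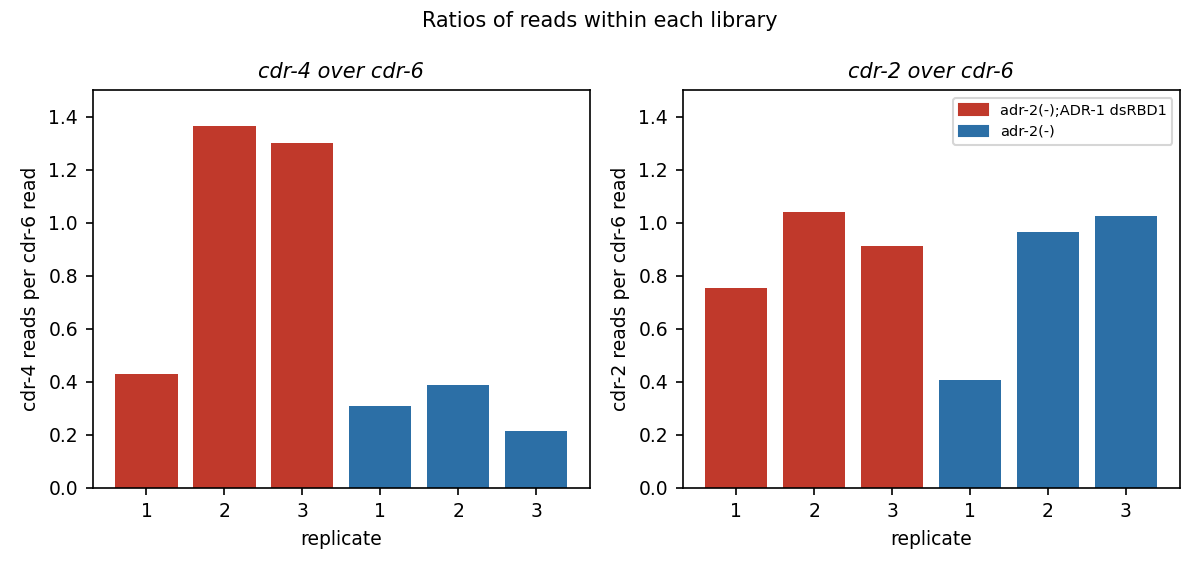
Reads of *cdr-4* (left panel) and *cdr-2* (right panel) per read of *cdr-6* in each library, with dsRBD1 replicates in red left of *adr-2 (-)* replicates in blue. The *cdr-4* bars are above 1 in dsRBD1 replicates 2 and 3 and between 0.213 and 0.429 in the other 4 libraries, while the *cdr-2* bars overlap.

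Levels were compared between genes per kilobase of exon, as means over the 6 libraries. The order was *cdr-6* (1451 per kb), *cdr-2* (1330.2), *mtl-1* (1195), *cdr-4* (945), *mtl-2* (116), *cdr-1* (83.4) and *cdr-7* (37.6), against a median of 114 over the genes tested. The top 4 lay above 91.8% to 94.5% of the genes tested, *mtl-2* was near the middle at 50.7%, and *cdr-1* and *cdr-7* were lower, at 41.5% and 22.8%.

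Neighbours in that order were mostly within the spread over libraries. *cdr-6* exceeded *cdr-2* per kilobase in 3 of 6 libraries (mean log2 difference 0.22 ± 0.52, SD), *cdr-2* exceeded *mtl-1* in 4 of 6 (0.13 ± 0.74) and *mtl-1* exceeded *cdr-4* in 5 of 6 (0.66 ± 0.91). The wide step was between *cdr-4* and *mtl-2*, with *cdr-4* per kilobase higher in 5 of 6 libraries and a mean log2 difference of 3.32 ± 2.36. Below it, *mtl-2* exceeded *cdr-1* in 4 of 6 (0.82 ± 1.70), and *cdr-1* exceeded *cdr-7* in 2 of 6 (0.81 ± 3.83).

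To find genes whose pattern over the 6 libraries was most like that of *cdr-4*, log2(value + 1) was centred for each gene and the root mean square difference from *cdr-4* was taken. The median difference over 13704 genes was 1.47. The nearest genes were the nuclear hormone receptor gene *nhr-3* (0.17), *F53H2.3* (0.26), the acyl-CoA synthetase gene *acs-4* (0.31), *oac-14* (0.32) and *F53B2.8* (0.34). *nhr-3* measured 1475, 4690.5 and 5214 in dsRBD1 cells and 842, 1466 and 716 in *adr-2 (-)* cells. In each of these 5 genes, as in *cdr-4*, dsRBD1 replicates 2 and 3 were the highest libraries. Choosing genes by likeness to *cdr-4* brings this about, and nothing is read from it. The genotypes did not overlap in *nhr-3* and *oac-14*, and overlapped in *F53H2.3*, *acs-4* and *F53B2.8*. None of the other 6 members was near, the closest being *mtl-1* at 0.83, which ranked 860 of 13704, and *cdr-2* at 0.96, which ranked 2004.

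The wider metal pathway was described from a list of 58 genes, of which 54 had a row and 49 had a mean value of at least 10. The names *zipt-15*, *numr-2*, *chca-1* and *hrg-7* matched no row. By limma with Benjamini-Hochberg adjustment 0 of the 49 passed (smallest adjusted p 0.703), and 4 were higher and 2 lower at an unadjusted p under 0.05, against 3.46% higher and 2.90% lower over all genes. DESeq2 and edgeR also called 0 of the 49. In 7 of the 49 every dsRBD1 library lay above and in 3 every one lay below, against 6.80% and 6.92% of all genes. The median log2 fold change of the 49 was 0.39, against 0.09 over all genes. Of the 49, 33 were above 0, against 54.5% of all genes. Some of the 33 had 0 reads in the shallow *adr-2 (-)* replicate 3. Among these, *cdf-2* (-2.04), *zipt-3* (-1.01), *hizr-1* (-0.35), *zipt-2.2* (-0.21) and *ttm-1* (-0.15) fell below 0 at their lowest with 1 library left out. In the other direction, *zipt-7.1* had 0 reads in dsRBD1 replicate 1 and rose to 0.72 at its highest. *zipt-17*, with 0 reads in dsRBD1 replicates 1 and 3 and *adr-2 (-)* replicates 1 and 2, rose to 1.40.

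Zinc transporters gave all 3 of the genes that lay wholly lower. *zipt-2.4*, of the ZIP family that brings zinc into the cytosol, measured 63.2, 75.8 and 18.6 in dsRBD1 cells and 253, 197 and 247 in *adr-2 (-)* cells, a log2 fold change of -2.34 (SE 0.83, limma adjusted p 0.722). *zipt-1* measured 85.5, 96.3 and 63.7 in dsRBD1 cells and 281, 188 and 325 in *adr-2 (-)* cells (log2 fold change -1.67, SE 0.61, limma adjusted p 0.739), and *zipt-2.1* had a log2 fold change of -0.90 (SE 0.52, limma adjusted p 0.741). All 3 are ZIP genes, and ZIP genes as a family were not tested. *sur-7*, of the cation diffusion facilitator family, measured 334, 201 and 212 in dsRBD1 cells and 139, 175 and 0 in *adr-2 (-)* cells, the only 1 of the 17 zinc transport genes tested that lay wholly higher. The *sur-7* log2 fold change of 3.07 (SE 1.66, limma adjusted p 0.741) was 0.63 without *adr-2 (-)* replicate 3. Over the 17 zinc transport genes tested, 8 were above 0 and 9 below, with a median of -0.35.

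The cadmium and arsenic, iron, and copper and heme groups each had 1 gene wholly higher in dsRBD1 cells and 0 wholly lower. Over all genes the shares were 6.80% and 6.92%, and nothing is read from counts in such small groups. Of 10 cadmium and arsenic genes tested, 8 were above 0 (median 0.27), and only the glutathione S-transferase gene *gst-4* was separated, at 2405, 2967 and 2325 in dsRBD1 cells and 2111, 1785 and 1935 in *adr-2 (-)* cells. Of 6 iron genes, 4 were above 0 (median 0.21), and the ferritin gene *ftn-1*, whose product stores iron, measured 349.6, 391 and 291 in dsRBD1 cells and 152, 205 and 3.25 in *adr-2 (-)* cells. The last value is a single read, and its log2 fold change of 2.74 (SE 1.22, limma adjusted p 0.741) was 0.95 without that library. Of 5 copper and heme genes, 4 were above 0 (median 0.45), and *hrg-1*, a heme transporter gene, measured 239.9, 347 and 261 in dsRBD1 cells and 187, 137 and 87.8 in *adr-2 (-)* cells.

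Of 11 regulators, 9 had a log2 fold change above 0 (median 0.40), against 54.5% of all genes, and 3 lay wholly higher in dsRBD1 cells, against 6.80% of all genes. *daf-16*, which encodes the FOXO factor, measured 3603, 4207 and 2951 in dsRBD1 cells and 2009, 2942 and 1587 in *adr-2 (-)* cells (log2 fold change 0.75, SE 0.26, limma adjusted p 0.722). *hsf-1*, the heat shock factor gene, measured 433, 578 and 898 in dsRBD1 cells and 415, 343 and 139.9 in *adr-2 (-)* cells (log2 fold change 1.16, SE 0.46, limma adjusted p 0.741). The zinc finger factor gene *pqm-1* had a log2 fold change of 1.12 (SE 0.31, limma adjusted p 0.703). The study itself reported *pqm-1* as increased in this comparison, using DESeq2. DESeq2 on the recovered reads did not call it here (DESeq2 adjusted p 0.098). Because the list was made with earlier results of these data known, nothing is read from the count of regulators.

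The other 8 regulators overlapped between the genotypes. The zinc sensor gene *hizr-1* had a log2 fold change of 1.48 (SE 2.00), which was -0.35 at its lowest with 1 library left out. The intestinal GATA factor genes *elt-2* and *elt-7* had -0.36 (SE 0.47) and -0.74 (SE 0.77). The stress factor gene *skn-1* had 0.48, the mediator subunit gene *mdt-15* 0.40, the hypoxia factor gene *hif-1* 0.40, and the kinase genes *kgb-1* and *mek-1* 0.28 and 0.39.

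**Figure D5:**
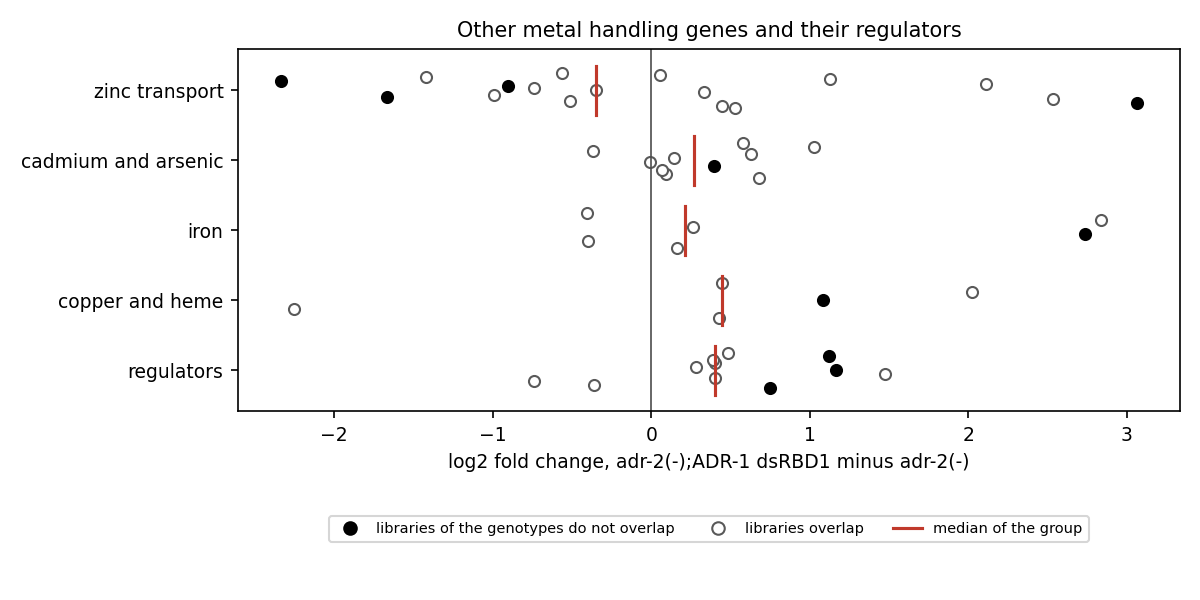
Log2 fold changes (dsRBD1 minus *adr-2 (-)*) of 49 other metal handling genes by group; filled points are genes whose libraries do not overlap, and red lines are group medians. Zinc transport has a median of -0.35 and the other groups have medians of 0.21 to 0.45.

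In these bulk samples, fewer cells of a type and less RNA per cell cannot be told apart. Several other tissues' marker lists moved with the genotypes, and their part in the values above was not tested. Pharyngeal markers summed to 72582 to 91666 in dsRBD1 cells and 52104 to 67128 in *adr-2 (-)* cells. Of these 6 genes, 2 lay wholly higher in dsRBD1 cells, against 6.80% of all genes. Germline and early embryo markers summed to 711 to 1192 in dsRBD1 cells and 1735 to 6476 in *adr-2 (-)* cells. Of these 10 genes, 9 lay wholly lower in dsRBD1 cells, against 6.92% of all genes. Glial markers summed to 1048 to 1280 in dsRBD1 cells and 433 to 957 in *adr-2 (-)* cells, and overlapped once *fig-1* was left out. Sums overlapped for body wall muscle (282902 to 305261 in dsRBD1 cells, 192431 to 332535 in *adr-2 (-)* cells). Epidermal sums also overlapped (807 to 11766 in dsRBD1 cells, 866 to 5329 in *adr-2 (-)* cells). So did those of coelomocytes (462 to 539 in dsRBD1 cells, 130 to 519 in *adr-2 (-)* cells). Body wall muscle and coelomocyte markers each held 1 gene wholly higher, and epidermal and intestinal markers each held 1 wholly lower. The higher genes, *hlh-1* and *lgc-26*, had 0 reads in *adr-2 (-)* replicate 3. Their log2 fold changes of 2.97 and 3.18 were 0.81 and 0.90 at their lowest with 1 library left out.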

How the data were processed

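The data were 6 RNA-seq libraries of isolated L1 neural cells, 3 per genotype. From poly(A) RNA, the authors made stranded libraries with single-end reads of 75 bp, which STAR (2.7.8a) placed on WS275 where the alignment was unique. Counts per gene came from featureCounts (2.0.1) and were scaled by DESeq2 (1.26.0). How the counting used strand is not given in the sources used here. The signal the authors deposited is the read count divided by a size factor per library. The deposited log2 fold changes and p-values come from the authors' own comparison of the genotypes and were not used.

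Groups came from the genotype labels. All values (100%) were whole multiples of the value of 1 read (tolerance 0.01), which gave back the reads. Expression was compared with limma (3.58.1, R 4.3.3) on log2(value + 1), for genes averaging at least 10, since the unit is normalized. The recovered reads were tested with DESeq2 (1.42.0) and edgeR (4.0.16), and the tests were tested on simulated data. Positions are from Ensembl release 115 of WBcel235, and per-kilobase levels use its exon lengths. Only uniquely aligned reads were kept, so reads shared between similar family members are missing.

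The members, the metal gene lists and the marker lists were chosen with earlier results of these data known. Named were the members, the regulators, up to 6 non-overlapping genes per metal group by size of change, and the 5 genes most like *cdr-4*. Alternatives were another pseudocount, other filters, scalings and tools, a replicate block and leaving out each library. DESeq2 with libraries left out, and overlap under other scalings, were chosen after seeing the data. The replicates are biological as labelled. Intervals cover counting error only, since PCR copies are not independent molecules.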

Additional observations from a re-analysis of the deposited data

How the results depend on the processing

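The log2 fold changes of the 7 members moved by less than the spread between replicates under each of their 20 or 21 alternatives. With 3 libraries per genotype, leaving 1 out of the limma fit cannot move a fold change beyond that spread. The replicate block leaves it unchanged, so neither kind of setting is a check of stability. Leaving out a library cannot turn *cdr-4* or *mtl-2*, whose groups do not overlap. *cdr-2* changed sign without *adr-2 (-)* replicate 1 (-0.07, and also with DESeq2), and *cdr-7* without *adr-2 (-)* replicate 3 (-0.02). The range was 1.48 to 2.31 for *cdr-4* and -3.08 to -0.44 for *cdr-1*. The number of genes past both thresholds, 0 with limma, was 3 without a filter on low values, 0 to 11 with limma and 1 library left out (11 without *adr-2 (-)* replicate 2), 317 with DESeq2, and with DESeq2 443, 195 and 247 without dsRBD1 replicate 1, 2 or 3 and 144, 519 and 120 without *adr-2 (-)* replicate 1, 2 or 3. The cause was not tested. The number of members past the thresholds was 0 with limma, 1 (*cdr-4*) with DESeq2 and with the replicate block, and 0 to 1 with DESeq2 and 1 library left out (0 without dsRBD1 replicate 2, dsRBD1 replicate 3 or *adr-2 (-)* replicate 1). These calls use the contrast on which the group was chosen and support nothing. Among the other metal genes DESeq2 called 0, and 0 to 2 with 1 library left out, these being *pqm-1* and *skn-1* without dsRBD1 replicate 1 and *daf-16* and *pqm-1* without *adr-2 (-)* replicate 2. Without scaling by length, 3 of the 7 members kept their place in the order of levels. Scaling by library totals shifted the median log2 fold change of all genes by 0.12, scaling by totals without ribosomal RNA genes by -0.13, and leaving out *adr-2 (-)* replicate 3 by -0.15.

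With the replicate number as a block, 21 genes passed (3 higher and 18 lower). Deviations of same-numbered libraries correlated at -0.09, 0.04 and -0.06, and dsRBD1 replicate 3 correlated best with *adr-2 (-)* replicate 1 (0.145). With 3 libraries per genotype, these correlations cannot show whether same-numbered libraries were prepared together. The labels do not say. Depth limits *mtl-2*, *cdr-1* and *cdr-7*, which had 0 to 148 reads per library.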
